A study of Mus musculus with 6 samples.

Results

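Calcineurin is a phosphatase that calcium and calmodulin switch on, and the NFAT transcription factors are its best known substrates. The 10 genes described here encode that system, and they comprise 5 NFAT genes (Nfatc1, Nfatc2, Nfatc3, Nfatc4 and Nfat5), 3 genes of calcineurin subunits (Ppp3ca, Ppp3cb and Ppp3r1) and 2 genes of calcineurin inhibitors (Rcan1 and Rcan2). They were chosen by name and by function, at a time when earlier results of these data were known, and are 10 of 20823 protein-coding genes that were placed on the mouse genome (NCBI Build 37, mm9). For each gene, the Sox6 peaks in the gene or within 20 kb of it were listed, and reads of Sox6, RNA polymerase II (Pol II) and input libraries were counted at every annotated start site and over the gene body.

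The study mapped where Sox6, a transcription factor known to repress slow-fibre genes, and Pol II sit on chromatin of cultured skeletal muscle cells (ChIP-seq). Primary myoblasts were taken from limbs of wild type C57BL/6 fetuses at E18.5, kept to passage 17, and differentiated into myotubes for 48 h in medium with little horse serum. Chromatin was fixed with disuccinimidyl glutarate and then formaldehyde and precipitated with an antibody to Sox6 or to Pol II, or sequenced without precipitation (input), with 2 libraries in each of the 3 groups. All 6 libraries came from the same kind of cells with no second genotype or treatment, so each comparison is between precipitated chromatin and input, and in cultured myotubes at a single time.

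The Sox6 libraries held 2985437 and 1468604 mapped reads, the Pol II libraries 1538757 and 2762155, and the inputs 21973495 and 24249850. Levels are given as RPM (reads per 1000000 mapped reads of the library) and, over gene bodies, as RPKM (RPM per kb of gene). The labelled cell type was checked by Pol II at start sites. All 9 myotube markers had Pol II above input at a start or more, as had 3 of 3 markers of myoblasts or satellite cells (Pax7, Myf5 and Pax3) and 49.6% of all genes with a tested start, although Pol II was below input over the body of Pax3 (log2 ratio -0.68, limma adjusted p = 0.0115). None of 5 fibroblast or interstitial markers, of 2 endothelial, 2 blood and 2 neuronal markers that could be tested had Pol II above input at a start, and Hbb-b1, a globin gene, had no Pol II read over its body. Over gene bodies, the markers that passed the test ran from Acta1, Myh3 and Actc1, with log2 ratios of Pol II to input of 6.75, 6.63 and 6.60, down to Snap25, Ptprc and Dcn at -1.85, -1.80 and -1.75.

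When calcium rises, calcineurin removes phosphates from NFATc proteins, which then enter the nucleus, and kinases such as GSK3, DYRK and casein kinase 1 put the phosphates back and send the proteins out again. In skeletal muscle this pathway is known for its part in the slow-fibre program, in the fusion of myoblasts with growing myotubes and in the response to nerve activity. Nfat5 differs from its relatives in that it lacks the region that binds calcineurin and responds to hypertonic stress.

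The deposited list of Sox6 peaks common to both replicates held 1 peak in or within 20 kb of these 10 genes, and it lay in Nfatc3. By comparison, 4.4% of all genes had a common peak in or within 20 kb, a share that was not matched for gene length. Nfatc3 encodes an NFAT factor that is present in muscle from early development (chr8:108583503-108654437, plus strand, longest model, 70.9 kb). The peak spans chr8:108636322-108636581 in the last of its 9 introns, 52.9 kb downstream of the start of the longest model and 18.0 kb before its end. Its sequence (plus strand) is shown because it is the site of this gene family that both Sox6 replicates called. Capitals mark matches on either strand to a Sox sequence (ACAAAG or ACAATG) or to an E-box (CAGCTG or CAGGTG), the site type bound by MyoD and its relatives.
Nfatc3 common Sox6 peak: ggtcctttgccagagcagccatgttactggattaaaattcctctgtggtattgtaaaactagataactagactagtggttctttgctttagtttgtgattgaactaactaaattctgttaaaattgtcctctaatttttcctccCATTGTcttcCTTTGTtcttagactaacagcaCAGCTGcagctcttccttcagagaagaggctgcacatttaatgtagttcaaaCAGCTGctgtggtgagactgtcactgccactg

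Both Sox matches, ACAATG and ACAAAG, lay on the minus strand, 17 and 27 bases to the right of the peak's centre, and 2 E-boxes of the form CAGCTG lay 49 and 101 bases to the right of it. No letters of these motifs overlapped. In windows of 260 bases centred on the 1066 common peaks, 63.5% held a Sox match and 74% an E-box, against 32.6% and 28% of windows of that length 2 kb to either side. The peak also held 1 match to the NFAT core GGAAA and 2 to the Runx core CCACA, which 58.7% and 77% of the centred windows held, against 57.7% and 54.3% of the windows 2 kb away. It had no match to the Tead sequence GGAATG, found in 32.5% of the centred windows. These matches describe the letters and not a bound site. The study followed this region by quantitative PCR, and its primers lie in the genome sequence at chr8:108636569-108636641, an amplicon of 73 bp whose first 13 bp overlap the right end of the peak. The amplicon's centre is 154 bp to the right of the peak's centre. It lies in the bin of 100 bp where both Sox6 libraries had most reads (11 and 7).
Nfatc3-f: gtcactgccactgccacttg
Nfatc3-r: tcaatcagcacctgccctac

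Counted over 450 bp about this peak's centre, Sox6 replicate 1 had 33 reads (11.1 RPM) and Sox6 replicate 2 had 11 (7.49 RPM), whereas the inputs had 9 (0.410 RPM) and 13 (0.536 RPM). Sox6 was thus 27.0 times the input in replicate 1 and 14.0 times in replicate 2, and both Sox6 libraries lay above both inputs. The peak was called on these reads, so the values describe it and are not a test. Among the 1066 common peaks, whose medians were 5.02 and 6.81 RPM, 90.5% had a lower Sox6 level than this one in replicate 1 and 59.4% in replicate 2. The lists of both replicates hold it, as chr8:108636372-108636531 in replicate 1 and chr8:108636332-108636571 in replicate 2, so neither replicate's reads test it independently. In the shorter interval of the replicate 1 list, replicate 2 had 2 Sox6 and 4 input reads.

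**Figure D1:**
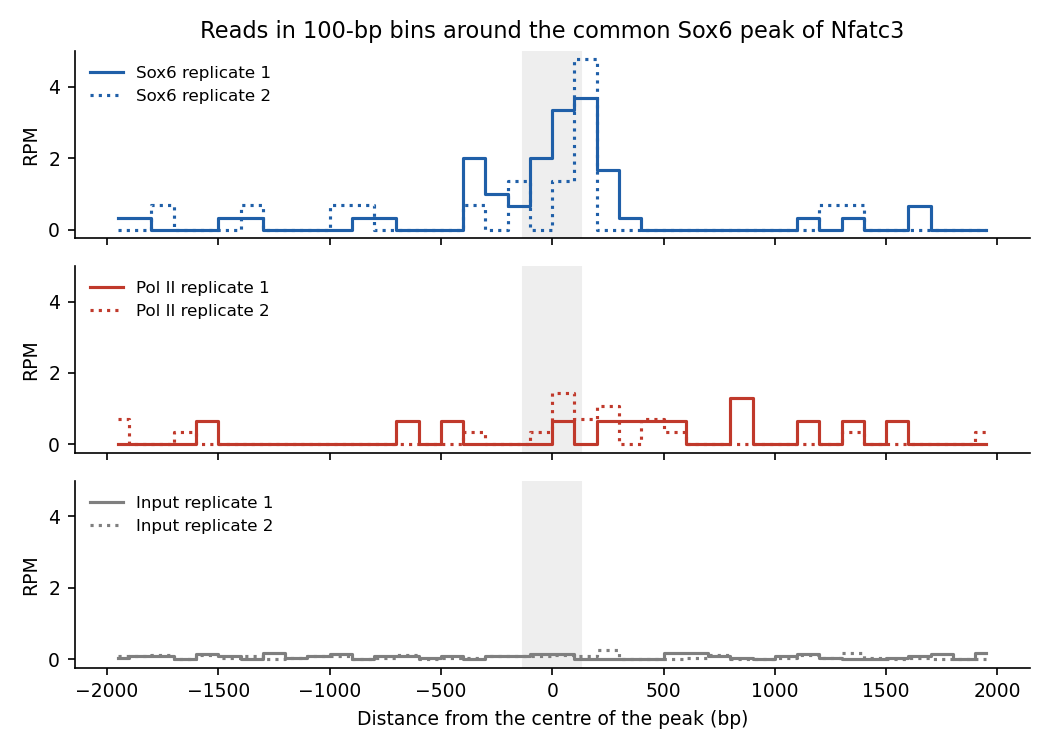
Reads in bins of 100 bp (RPM, vertical axes) by distance from the common peak's centre in Nfatc3 (bp, horizontal axis), with the Sox6, Pol II and input libraries in separate panels on 1 scale, replicate 1 as a solid and replicate 2 as a dotted line. The shaded band is the deposited interval of 260 bp, and reads of both Sox6 libraries were highest from 100 to 200 bp to the right of the centre, while both inputs stayed near the axis.

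This single window of 450 bp makes up 0.639% of the Nfatc3 body, but it held 18.9% of the body's Sox6 reads in replicate 1 (33 of 175, exact 95% binomial interval 13.4% to 25.4%) and 17.7% in replicate 2 (11 of 62, 9.20% to 29.5%). In the inputs it held 0.828% (9 of 1087, 0.379% to 1.57%) and 1.15% (13 of 1126, 0.616% to 1.97%). The peak was called on these Sox6 reads, so the shares describe it and are not a test, and the intervals cover counting error only. In the rest of the body, Sox6 against input gave log2 ratios of -0.04 for replicate 1 and -0.39 for replicate 2. Sox6 reads were thus not above input on average over the body outside this window, which does not describe each part of it.

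Overlapping the Sox6 peak, the Pol II list of replicate 2 has a peak at chr8:108636531-108636711, in the same intron, that shares 51 bp with the deposited Sox6 interval. Over 450 bp about its centre Pol II replicate 1 had 3 reads (1.95 RPM), Pol II replicate 2 had 10 (3.62 RPM), and the inputs had 3 (0.137 RPM) and 12 (0.495 RPM). The Sox6 libraries had 31 and 9 reads (10.4 and 6.13 RPM) in this window, which overlaps that of the Sox6 peak. In the window of the Sox6 peak itself Pol II had 1 read (0.650 RPM) and 7 reads (2.53 RPM). The replicate 1 list has no Pol II peak there, and 1 read in that library leaves little to compare.

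Single-replicate lists added peaks in Ppp3ca and Rcan2 only. The replicate 1 list held 4 peaks in or within 20 kb of the 10 genes, falling in 3 of them (9.87% of all genes had such a peak), and the replicate 2 list held the 1 in Nfatc3 (6.82% of all genes). These shares were not matched for gene length, and Nfatc3, Ppp3ca and Rcan2 are longer than 84.0%, 97.1% and 96.55% of all genes. No further gene of the 10 gained a peak of any list when the distance was raised to 50 kb. Ppp3ca encodes the alpha catalytic subunit of calcineurin (chr3:136333088-136600691, plus strand, 267.6 kb, longer than 97.1% of all genes), and its peak of 60 bp lay in the first of 12 introns. Rcan2 encodes a calcineurin inhibitor (chr17:43938800-44176465, plus strand, 237.7 kb), and its peaks of 160 and 220 bp lay in introns 2 and 4 of 4. The sequences are shown with Sox and E-box matches in capitals as above, for comparison with the Nfatc3 site.
Ppp3ca, chr3:136385632-136385691: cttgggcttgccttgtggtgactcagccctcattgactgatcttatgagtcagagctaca
Rcan2, chr17:44036772-44036931: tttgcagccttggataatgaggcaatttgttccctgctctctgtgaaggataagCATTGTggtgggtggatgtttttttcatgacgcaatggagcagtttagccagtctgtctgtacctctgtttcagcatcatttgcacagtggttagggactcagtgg
Rcan2, chr17:44163432-44163651: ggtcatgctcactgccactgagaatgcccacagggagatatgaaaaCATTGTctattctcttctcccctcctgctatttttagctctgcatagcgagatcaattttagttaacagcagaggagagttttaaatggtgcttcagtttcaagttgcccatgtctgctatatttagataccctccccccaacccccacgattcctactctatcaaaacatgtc

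Each Rcan2 sequence held 1 Sox match of the form ACAATG on the minus strand and no E-box, and the Ppp3ca sequence held neither. Of windows of 160 and 220 bases on the common peaks, 53.2% and 60.2% held a Sox match and 58.6% and 69.9% an E-box, against 20.9% and 28.5%, and 18.1% and 24%, of windows 2 kb to either side. Of windows of 60 bases on the common peaks 28.3% held a Sox match and 26.8% an E-box, against 8.63% and 7.18% to either side. In the 450-bp window of the Ppp3ca peak, Sox6 had 12 and 2 reads (4.02 and 1.36 RPM) and the inputs 8 and 12 (0.364 and 0.495 RPM). These peaks are in the replicate 1 list alone, and the reads of replicate 2 were tested against input by an exact two-sided binomial test that allows for library size, with Benjamini-Hochberg adjustment over that list, which 67% of all its peaks passed (84.2% of replicate 2 peaks passed with the reads of replicate 1). Both shares include peaks that both replicates called, so they are no measure for peaks of a single list. The test compares reads of single libraries and covers counting error only. The Ppp3ca peak did not pass (adjusted p = 0.225, exact binomial). At the first Rcan2 peak Sox6 had 7 and 5 reads (2.35 and 3.40 RPM) against 12 and 11 input reads (0.546 and 0.454 RPM), and replicate 2 passed (adjusted p = 0.00325, exact binomial). At the other Rcan2 peak Sox6 had 10 and 3 reads (3.35 and 2.04 RPM) against 18 and 10 (0.819 and 0.412 RPM), and replicate 2 lay at the threshold (adjusted p = 0.0501, exact binomial). In a window of 1000 bp, with 6 Sox6 and 18 input reads, that peak passed (adjusted p = 0.00386), whereas in the deposited interval, with 2 and 4 reads (adjusted p = 0.103), and with repeated positions counted once (adjusted p = 0.0508) it did not. At all 3 peaks the Sox6 level lay above both inputs in both replicates, on few reads, and each was below the Nfatc3 site in both Sox6 libraries. The remaining 7 genes (Nfatc1, Nfatc2, Nfatc4, Nfat5, Ppp3cb, Ppp3r1 and Rcan1) had no Sox6 peak of any list in or within 50 kb, and the nearest peak of any list to one of them was 116.1 kb from Ppp3cb.

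Over gene bodies, the 10 genes spread over a wide range of Pol II. Bodies were counted from 500 bp downstream of the start of the longest model to its end, and log2 ratios to input were fitted by limma over all gene bodies with 0.5 reads added to each count and Benjamini-Hochberg adjustment at 0.05. Of the 10 genes, 6 had Pol II above input (Nfat5, Nfatc3, Ppp3cb, Ppp3r1, Nfatc2 and Ppp3ca) and 2 below it (Nfatc1 and Rcan2), beside 39.3% and 25.6% of all 18415 gene bodies tested. The median log2 ratio was 0.45 over the 10 genes and 0.17 over all bodies. Ratios are relative to all mapped reads of a library. Nfatc1 lost its call without either input library (adjusted p = 0.113 and 0.140) and in a single fit of all 6 libraries. Ppp3ca lost its call without Pol II replicate 1 or without Input replicate 2 (adjusted p = 0.107 and 0.199), in the fit of 6 libraries, and with the median of all bodies set to 0.

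**Figure D2:**
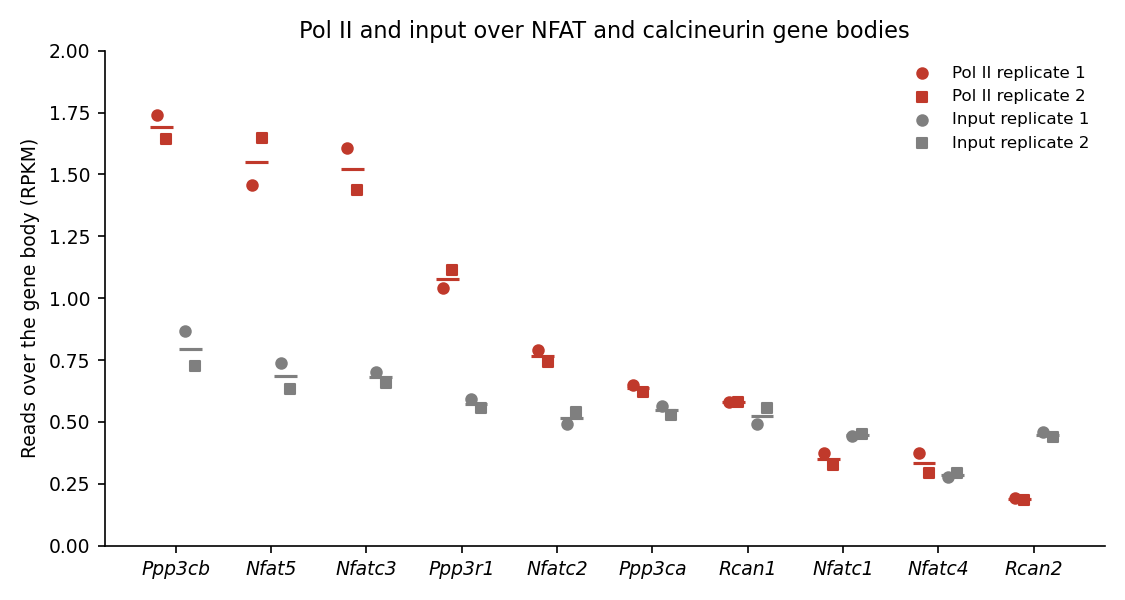
Reads over the gene body (RPKM, vertical axis) of the 10 genes in order of mean Pol II level, with circles for replicate 1, squares for replicate 2, and lines for the mean of the 2 Pol II (red) or input (grey) libraries. Pol II lay above both inputs in both libraries from Ppp3cb to Rcan1, and below both inputs in Nfatc1 and Rcan2.

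Among the NFAT factors, Nfat5 and Nfatc3 had the most Pol II. Nfat5 (chr8:109817370-109903416, plus strand, 86.0 kb) had 1.46 and 1.65 RPKM of Pol II against 0.736 and 0.632 RPKM of input, a log2 ratio of 1.19 ± 0.11 (SE, n = 2 against 2, limma adjusted p = 8.04e-06). Nfatc3 had 1.60 and 1.44 RPKM against 0.702 and 0.659 RPKM, a log2 ratio of 1.16 ± 0.10 (limma adjusted p = 5.61e-06). In both genes each Pol II library lay above each input, and the ranges of the pair overlapped each other. The longest Nfatc3 model shares its last 219 bp with Esrp2 on the other strand, where the Pol II libraries had 0 and 1 reads.

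Nfatc2 (chr2:168301913-168427038, minus strand, 125.1 kb), the factor known for recruiting myoblasts to growing myotubes, had 0.793 and 0.741 RPKM of Pol II against 0.493 and 0.539 RPKM. Its log2 ratio was 0.58 ± 0.09 (limma adjusted p = 0.000464). Nfatc1 (chr18:80802944-80909810, minus strand, 106.9 kb), which is linked to nerve activity and slow fibres, had 0.373 and 0.327 RPKM against 0.444 and 0.451 RPKM, a log2 ratio of -0.35 ± 0.11 (limma adjusted p = 0.0225). Both Pol II libraries of Nfatc1 thus lay below both inputs. Nfatc4 (chr14:56443632-56452780, plus strand, 9.15 kb), the shortest of the genes, had 5 and 7 Pol II reads over its body against 53 and 62 of input. Its log2 ratio of 0.31 ± 0.39 did not pass (limma adjusted p = 0.498), and a difference was not detectable at this depth.

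The catalytic subunits of calcineurin differed from each other in Pol II level. Ppp3cb, the beta catalytic subunit (chr14:21318586-21365795, minus strand, 47.2 kb), had 1.74 and 1.64 RPKM of Pol II against 0.867 and 0.725 RPKM of input, a log2 ratio of 1.10 ± 0.12 (limma adjusted p = 2.46e-05). Ppp3ca had 0.650 and 0.622 RPKM against 0.566 and 0.529 RPKM, a log2 ratio of 0.22 ± 0.08 (limma adjusted p = 0.0304). The lowest Ppp3cb library lay above the highest Ppp3ca library, and the difference between the genes was not tested. The regulatory subunit Ppp3r1 (chr11:17059266-17100378, plus strand, 41.1 kb), which binds calcium beside the catalytic chain, had 1.04 and 1.11 RPKM against 0.593 and 0.554 RPKM, a log2 ratio of 0.92 ± 0.12 (limma adjusted p = 0.000113).

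The inhibitors had lower Pol II levels over their bodies than the 3 calcineurin subunits, a difference that was not tested. Rcan1 (chr16:92392198-92466391, minus strand, 74.2 kb) had 0.582 and 0.580 RPKM against 0.492 and 0.556 RPKM, and its log2 ratio of 0.16 ± 0.11 did not pass (limma adjusted p = 0.248). Rcan2 had 0.192 and 0.183 RPKM against 0.458 and 0.441 RPKM, a log2 ratio of -1.25 ± 0.09 (limma adjusted p = 2.18e-06), which is 2.38 times less Pol II than input. Both Rcan2 values lay under both inputs, and 15.2% of all gene bodies had a lower ratio.

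By mean Pol II level per kb, the order was Ppp3cb, Nfat5, Nfatc3, Ppp3r1, Nfatc2, Ppp3ca, Rcan1, Nfatc1, Nfatc4 and Rcan2. The ranges of the 2 libraries overlapped between Ppp3cb and Nfat5, between Nfat5 and Nfatc3, and between Nfatc1 and Nfatc4, and did not overlap between the other neighbours. For scale, Actb, the reference gene of the study for Pol II, had 22.6 and 32.1 RPKM over its body, a log2 ratio of 5.98 ± 0.33 (limma adjusted p = 3.57e-07).

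**Figure D3:**
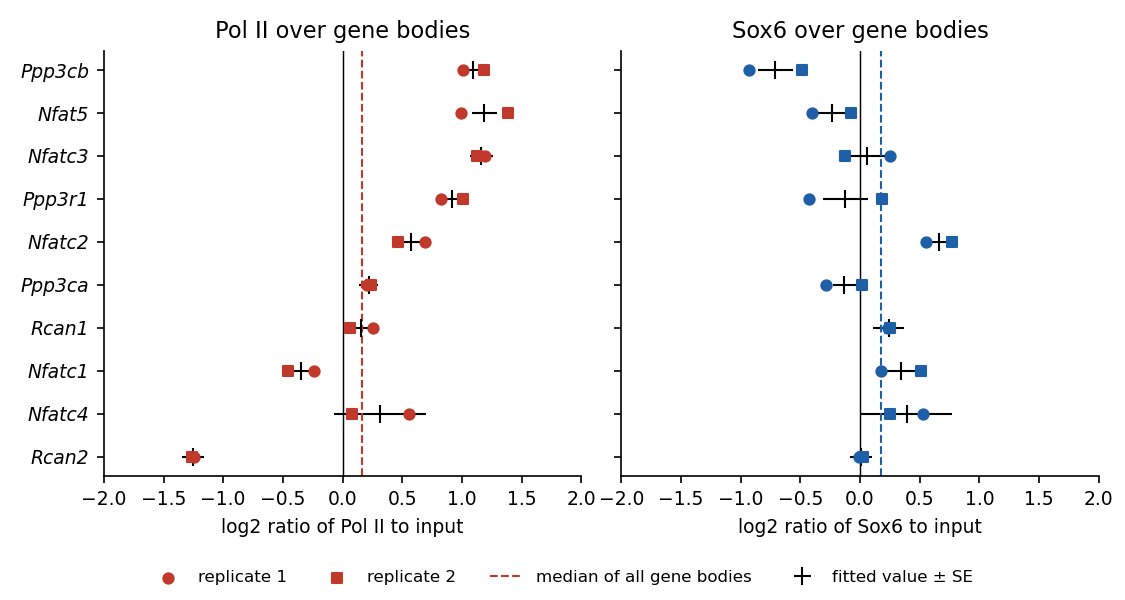
The log2 ratio of Pol II (left) and Sox6 (right) to input over the gene body of the 10 genes, with a circle for replicate 1 and a square for replicate 2, each against the input of that number, and a black tick with bars for the fitted value ± SE. The dashed line is the median of all gene bodies (0.17 in both panels). Of the 10 genes, Nfat5, Nfatc3 and Ppp3cb lay furthest to its right for Pol II, and Ppp3cb furthest to its left for Sox6.

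Along the genes, Pol II was compared between segments as a description, with no test. When each gene was divided into 10 equal segments from 5' to 3', Ppp3cb had 3.44 and 3.30 RPKM of Pol II in segment 1 and 3.17 and 3.22 RPKM in segment 6, against inputs of 0.848, 0.795, 1.08 and 0.908 RPKM. Pol II peaks of both replicate lists lay in each of these segments. The replicate 1 list had peaks 26.9 kb, 1.58 kb and 26 bp from the start of Ppp3cb (the last of them upstream), and the replicate 2 list had peaks 26.0 kb and 874 bp downstream of it. Nfatc2 had less Pol II in its first than in its last segment, with 0.364 and 0.405 RPKM in segment 1, below the inputs of 0.520 and 0.511 RPKM, and 1.04 and 1.01 RPKM in segment 10, above the inputs of 0.466 and 0.557 RPKM. In Rcan1 the last segment, which lies within its short model, had 0.964 and 1.02 RPKM of Pol II against 0.552 and 0.528 RPKM of input. No segment of the gene had more Pol II reads in either library, on 11 and 21 reads. Segment 3 equalled it in replicate 1 (0.963 RPKM) but not in replicate 2 (0.439 RPKM). Segment 8 came near it in replicate 2 (0.976 RPKM) but not in replicate 1 (0.263 RPKM).

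**Figure D4:**
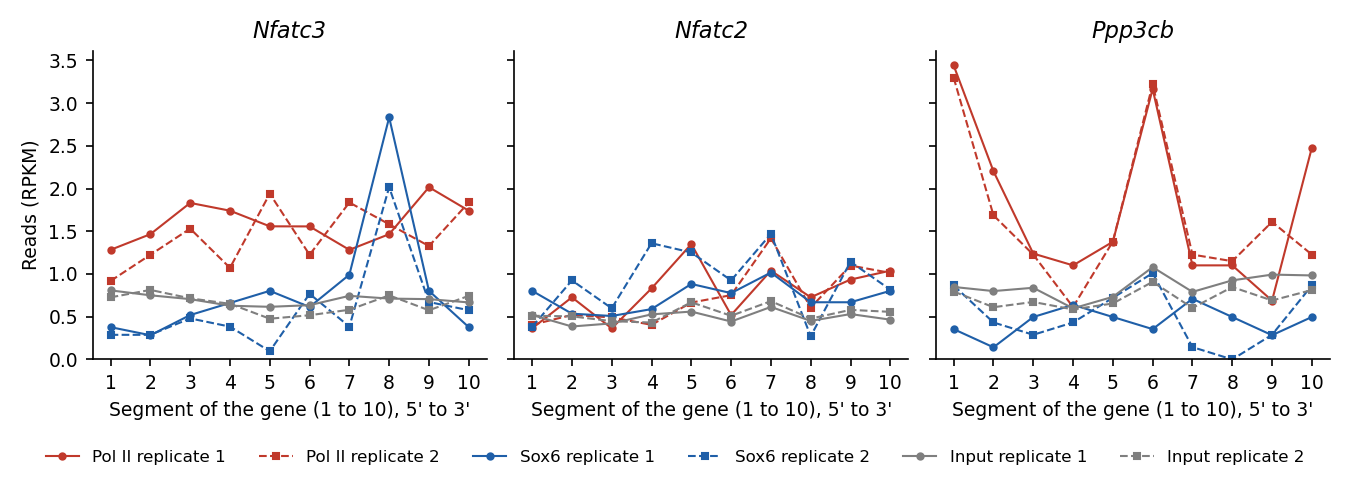
Reads (RPKM, vertical axis) in 10 equal segments of Nfatc3, Nfatc2 and Ppp3cb from 5' to 3' (horizontal axis), with Pol II in red, Sox6 in blue and input in grey, and replicate 1 as solid lines with circles and replicate 2 as dashed lines with squares. Sox6 rose to 2.83 and 2.02 RPKM in segment 8 of Nfatc3, which holds the common peak, and Pol II in Ppp3cb was highest in segments 1 and 6.

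At start sites, the clearest Pol II was at Nfatc3, Ppp3cb and the first start of Nfat5. The 10 genes have 19 annotated start sites, and reads were counted within 500 bp of each. Of these, 16 had the 10 reads needed for the test, and 12 of the 16 had Pol II above input and none below (limma as above), beside 42% of all 24858 start sites tested. The filter sums Pol II and input reads. The inner Nfatc2 start, the Ppp3r1 start and the first starts of Ppp3ca and Nfat5 had under 10 input reads. They thus entered the test only through their Pol II reads. With no filter 12 starts of these genes were again above input, beside 12207 of all starts. At 1 start or more, 8 of the 10 genes had Pol II above input, beside 49.6% of all genes with a tested start. Of the others, Nfatc1 had no tested start, and the start of Nfatc4 was tested and did not pass. Windows hold few reads, with a median of 1 and 2 Pol II reads over all starts. The start fits pooled the variance over starts of similar level. Their SE and p-values therefore do not measure the spread of libraries at a single start. The 0.5 reads added weigh more in the shallower libraries, and the median log2 ratio of all starts was 1.16. With this median set to 0, 5 starts of these genes were called (Nfatc3 1 and 2, Ppp3cb 1, Nfat5 1 and Ppp3ca 1), and over all starts 5085 were higher and 2333 lower in place of 10434 and 18. The starts that kept their call under every alternative in which they were tested were 4 in number, both of Nfatc3, that of Ppp3cb and the first of Nfat5, the last of which was left out by the filter of at least 40 reads.

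Nfatc3 has a pair of starts 763 bp apart, so their windows share reads. At the first (108582740) Pol II had 8 and 17 reads (5.20 and 6.15 RPM) against 17 and 28 input reads (0.774 and 1.15 RPM), a log2 ratio of 2.61 ± 0.39 (limma adjusted p = 1.97e-10). At the second (108583503) Pol II had 10 and 18 reads (6.50 and 6.52 RPM) against 11 and 11 (0.501 and 0.454 RPM), a log2 ratio of 3.76 ± 0.44 (limma adjusted p = 3.74e-16). That is 12.98 and 14.37 times the input of the same number, and each Pol II library lay above each input at both starts. The Pol II lists of both replicates had a peak between the 2 starts, centred 352 bp upstream of the second, and the second start had 4.04 and 4.52 times the Pol II per kb of the gene's own body. By mean RPM it was the start with the most Pol II among the 19. Its limma adjusted p was 2.28e-06 with at least 40 reads required and 0.00295 with 0.1 RPM added in every library.

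At Ppp3cb (21365795) Pol II had 11 and 9 reads (7.15 and 3.26 RPM) against 12 and 14 input reads (0.546 and 0.577 RPM), a log2 ratio of 3.12 ± 0.46 (limma adjusted p = 8.9e-11). The first start of Nfat5 (109817370) had 4 and 9 Pol II reads (2.60 and 3.26 RPM) against 5 and 4 (0.228 and 0.165 RPM), a log2 ratio of 3.88 ± 0.70 (limma adjusted p = 2.26e-07). Both Pol II libraries were above both inputs at each of these starts. The other Nfat5 starts, 45443 and 62350 bp downstream, had log2 ratios of 1.41 ± 0.56 and 2.14 ± 0.69 (limma adjusted p = 0.0304 and 0.00545) and lost their calls under several alternatives. The replicate 2 list had a Pol II peak in the last Nfat5 intron, 77.6 kb from the first start, with 4 and 6 Pol II reads against 7 and 5 in its window of 450 bp. Peaks in or within 1 kb of a gene covered 2 of the 10 genes in the replicate 1 list and 3 in the replicate 2 list, where 16.1% and 22.2% of all genes had one.

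Of the starts of Nfatc2, the inner one passed the test and the outer one did not, and the difference between them was not tested. The outer start (168427157) had 0 Pol II reads in both libraries against 7 and 9 input reads, with a log2 ratio of -0.59 ± 0.85 (limma adjusted p = 0.661), and Pol II near the input level was not detectable at this depth. The inner start, 11292 bp downstream, had 2 and 5 reads (1.30 and 1.81 RPM) against 3 and 5 (0.137 and 0.206 RPM), a log2 ratio of 3.24 ± 0.85 (limma adjusted p = 0.000499), which missed the threshold with the median of all starts set to 0 (adjusted p = 0.0669). Neither start of Nfatc1 reached 10 reads in the 4 libraries, with 2 and 0 Pol II reads at the first and none at the second, and Nfatc4 had none at its start against 6 and 6 input reads.

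Other calls at starts rested on fewer reads. Ppp3r1 had 1 and 7 Pol II reads (0.650 and 2.53 RPM) against 3 and 6 (0.137 and 0.247 RPM), with a log2 ratio of 2.98 ± 0.86 (limma adjusted p = 0.0016), and lost its call without Input replicate 1 (adjusted p = 0.0935). At the first start of Ppp3ca Pol II had 0 and 8 reads against 0 and 9 input reads, with a fitted log2 ratio of 3.41 ± 0.86 (limma adjusted p = 0.000262). Replicate 1 had no read in either library, so its log2 ratio of 3.84 came from the 0.5 reads added in libraries of unequal depth, and that of replicate 2 was 2.97. The call was lost without Pol II replicate 2 (adjusted p = 0.728) or Input replicate 1 (adjusted p = 0.705). The second start of Ppp3ca, 646 bp downstream, had 1 and 1 Pol II reads and was under the filter.

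Rcan1 is transcribed from a first start and from an internal one that is known to answer to calcineurin through NFAT sites. Pol II had 3 and 4 reads (1.95 and 1.45 RPM) at each of the 2 starts. Inputs were 11 and 7 reads (0.501 and 0.289 RPM) at the first start and 16 and 19 (0.728 and 0.784 RPM) at the internal one, 66069 bp downstream. The log2 ratios were 2.26 ± 0.68 (limma adjusted p = 0.00258) and 1.31 ± 0.55 (limma adjusted p = 0.042). Each Pol II library was above each input at both starts, but the internal start lost its call under 11 of 15 alternatives, among them leaving out Pol II replicate 1 (adjusted p = 0.0884), Input replicate 1 (0.259) or Input replicate 2 (0.179), and the first start lost its own without Input replicate 2 (0.0700). The 300 bases upstream of each start are shown on the transcribed strand with the NFAT core GGAAA in capitals on either strand.
Rcan1 internal start, chr16:92400323-92400622: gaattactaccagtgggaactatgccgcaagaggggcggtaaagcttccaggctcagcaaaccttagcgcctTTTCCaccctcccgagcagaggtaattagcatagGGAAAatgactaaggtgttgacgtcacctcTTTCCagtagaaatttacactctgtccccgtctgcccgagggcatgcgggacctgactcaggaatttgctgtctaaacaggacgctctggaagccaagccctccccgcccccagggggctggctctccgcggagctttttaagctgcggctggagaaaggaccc
Rcan1 first start, chr16:92466392-92466691: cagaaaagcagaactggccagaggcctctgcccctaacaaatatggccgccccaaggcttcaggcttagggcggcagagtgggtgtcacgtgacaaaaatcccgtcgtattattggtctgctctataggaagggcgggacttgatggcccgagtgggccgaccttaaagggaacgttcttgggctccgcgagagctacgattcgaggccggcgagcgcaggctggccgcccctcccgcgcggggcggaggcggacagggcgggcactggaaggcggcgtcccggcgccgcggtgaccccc

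The internal start had 3 matches in these 300 bases and the first start none. Over all 29686 start sites, 62.5% had a match or more in the 300 bases upstream and 9.84% had 3 or more. The 5-letter core is short, and a match does not show a bound site.

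The first start of Rcan2 (43938800) had 1 and 5 Pol II reads (0.650 and 1.81 RPM) against 3 and 7 (0.137 and 0.289 RPM), a log2 ratio of 2.65 ± 0.87 (limma adjusted p = 0.00657), which was lost without Input replicate 1 (adjusted p = 0.230) or Input replicate 2 (0.0916). Its other starts, 2152 and 151340 bp downstream, had 0 and 1 Pol II reads and none, and did not pass (limma adjusted p = 0.626 and 0.828).

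**Figure D5:**
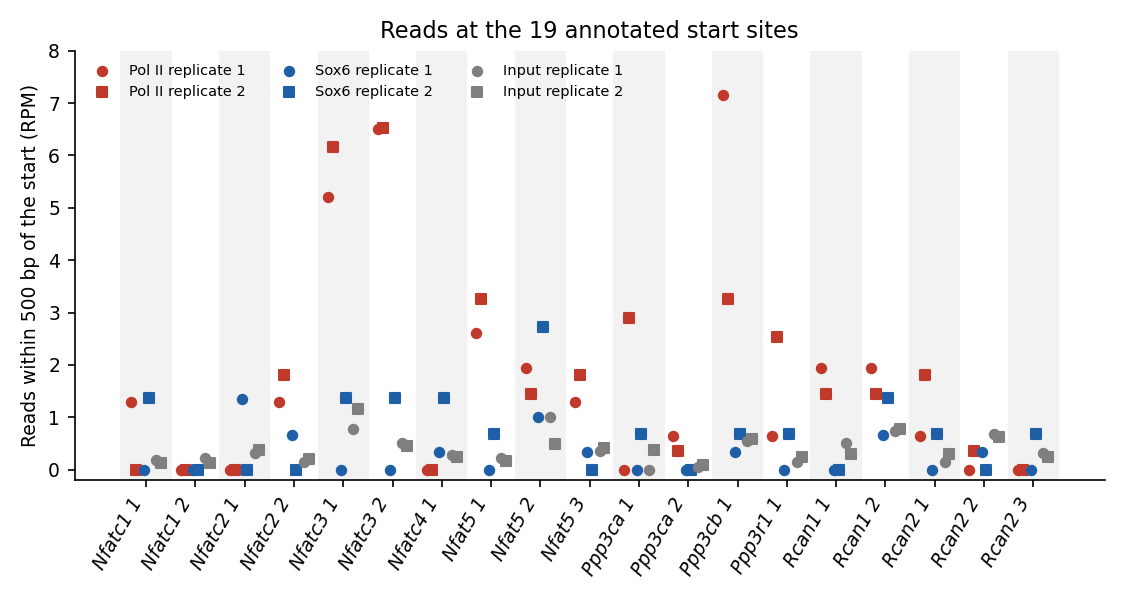
Reads within 500 bp of each of the 19 annotated start sites (RPM, vertical axis), numbered within each gene from its first start, with Pol II in red, Sox6 in blue and input in grey, circles for replicate 1 and squares for replicate 2. Both Pol II libraries lay between 5.20 and 6.52 RPM at the Nfatc3 starts, and Sox6 held at most 4 reads per library at any start.

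Sox6 was not found above input at a start site of these genes. None of 16 tested starts passed in either direction (limma adjusted p, beside 2.3% of all 24969 starts above input), and 2 of the 16 had an unadjusted p under 0.05, as had 3878 of all 24969 starts. No start had more than 4 Sox6 reads in a library, so only large enrichments could have been seen. At the Nfatc3 starts Sox6 had 0 and 2 reads in each window, against 17 and 28 and against 11 and 11 input reads. The calls at starts varied with the library left out, with 8 of these starts above input without Sox6 replicate 1, where 9888 of all starts were, and 2 without Sox6 replicate 2, where 3983 of all starts were. Without Sox6 replicate 2, the first Nfatc3 start was below input (log2 ratio -2.53, limma adjusted p = 0.00311).

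Over gene bodies Sox6 was above input in Nfatc2 and below it in Ppp3cb, and the other 8 genes did not pass. Over all 18433 bodies 5.98% were above and 2% below input. Further calls depended on the Sox6 library left out. Without Sox6 replicate 1, where 6618 of all bodies were above input and 2810 below, Nfatc1 (log2 ratio 0.52, limma adjusted p = 2.85e-05) and Rcan1 (0.34, limma adjusted p = 0.0116) were also above it. Without Sox6 replicate 2, where 4132 were above and 1906 below, Nfatc3 was also above input (0.29, limma adjusted p = 0.0355), and Nfat5 (-0.29, limma adjusted p = 0.0369) and Ppp3r1 (-0.38, limma adjusted p = 0.0201) were below it. Nfatc2 had 0.723 and 0.918 RPKM of Sox6 against 0.493 and 0.539 RPKM, a log2 ratio of 0.66 ± 0.13 (limma adjusted p = 0.0206), which was lost with 0.1 RPM added in every library (adjusted p = 0.0582). Both Sox6 libraries lay above both inputs, without any Sox6 peak, and Sox6 replicate 1 lay above its input in 10 of 10 segments of the gene and replicate 2 in 8 of 10. Most segments were also above input in Nfatc1 (7 and 9 of 10), with fewer in replicate 1 of the remaining genes apart from Nfatc4. Nfatc4 had 7 and 8 of 10 segments above input, but its body held only 10 and 4 Sox6 reads. Several of these segments had no Sox6 read in replicate 2 and lay above input only through the 0.5 reads added, as segment 3 did (log2 ratio 0.14). Ppp3cb had 0.452 and 0.510 RPKM against 0.867 and 0.725 RPKM, a log2 ratio of -0.71 ± 0.15 (limma adjusted p = 0.0272). This call was lost without Input replicate 1 (adjusted p = 0.515), without Input replicate 2 (adjusted p = 0.0512) and with 0.1 RPM added in every library (adjusted p = 0.0587), and the Ppp3cb inputs were the highest of the 10 genes. With the median of all bodies set to 0, calls over all genes turned from 1103 higher and 368 lower to 431 and 946, while the calls of Nfatc2 and Ppp3cb stayed. Nfatc3 had 0.832 and 0.599 RPKM of Sox6 against 0.702 and 0.659 RPKM over its whole body, a log2 ratio of 0.06 ± 0.15 (limma adjusted p = 0.826), and its replicates went opposite ways, with log2 ratios of 0.25 and -0.13.

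The genes with the pattern most like Nfatc3, over 8 log2 ratios to input (start with the most Pol II and body, in each of the 4 ChIP libraries), were Hmgxb3, Zc3h18 and Hdlbp. Their Euclidean distances from it were 0.863, 0.929 and 0.954, where the median over 16057 genes was 4.93. The measure ranks likeness over few libraries and says nothing of what the genes do.

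Around the 10 genes, other parts of the pathway were counted from lists, which are set beside all gene bodies (39.3% with Pol II above input and 25.6% below, median log2 ratio 0.17). Of 16 calcineurin regulators and partners, 10 had Pol II above input over the body and 2 below, with a median log2 ratio of 0.96. The highest were Ppia (cyclophilin A, which carries cyclosporin onto calcineurin, 4.07), Calm2 and Calm3 (calmodulins, 2.42 and 2.33). The lowest that passed were Ppp3r2, a testis form of the regulatory subunit with no Pol II read in either library, Ppp3cc, the third catalytic subunit (-0.69), and Cabin1, an inhibitor (0.51). Fbxo32, a ubiquitin ligase that acts on calcineurin, was the 1 gene of this list with a common Sox6 peak within 20 kb, where 4.4% of all genes had one.

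Kinases that phosphorylate NFAT had Pol II above input over 10 of 11 bodies and at a start in 11 of 11, with a median log2 ratio over bodies of 2.12, beside 39.3% of all bodies and 49.6% of all genes with a tested start. Prkaca, Dyrk2 and Csnk1a1 were the highest at 3.46, 3.08 and 2.997, and Mapk14, Gsk3b and Mapk8 the lowest that passed at 1.15, 1.05 and 0.52. Of 13 slow-fibre and fusion genes linked to NFAT, 9 were above input and 1 below, beside 39.3% and 25.6% of all bodies, led by Myog (6.35), Tnni1 (4.12) and Tnnt1 (3.80), with Mb (1.91), Myh7 (1.14) and Ppargc1a (-0.46) the lowest that passed. A common Sox6 peak lay within 20 kb of 5 of these 13 genes (Myh7, Tnni1, Tnnt1, Myl2 and Mb), beside 4.4% of all genes, several of which the study picked from these libraries, so this is not independent evidence. Of 4 osmotic-stress genes of Nfat5, 2 were above input (Slc6a6, 3.04, and Akr1b3, 1.42) and Slc6a12 was below it (-0.90). Sox6 over the body was above input in 2, 1, 3 and 1 genes of the 4 lists in this order and below it in none, beside 5.98% and 2% of all bodies.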

How the data were processed

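Sox6, Pol II and input chromatin of mouse fetal myotubes were sequenced, 2 libraries each, and samples were grouped by their labels. The authors aligned reads with Bowtie (0.12.5, submitters' processing notes) to NCBI Build 37 (mm9), kept uniquely mapped reads, called peaks with SISSRs against input, and derived the common Sox6 list. The deposited files hold read positions and peak intervals. The Pol II lists carry a deposited score column with no name, which was not used.

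Reads were counted by their 5' ends and scaled to mapped reads. Genes were GENCODE protein-coding genes of the same build on chromosomes 1 to 19 and X that are named in a RefSeq table (20823), with the longest model of each, and starts were those of protein-coding models, merged within 500 bp. Log2 RPM with 0.5 reads added was fitted with a trend by limma 3.58.1 (R 4.3.3) across all starts or bodies with at least 10 reads, with 1 fit for each antibody, two-sided, and p-values were adjusted by Benjamini-Hochberg. Bodies needed genes of at least 1500 bp. The fit was tested on simulated data. Counting and binomial tests used Python 3.11.15 and scipy 1.17.1, sequences pysam 0.24.0 and plots matplotlib 3.10.9. Alternatives were other additions of reads, filters, windows, scalings, repeated positions counted once, a replicate block, and each library left out. Named genes were the members, every start and peak of theirs, Actb, the 3 genes nearest to Nfatc3, and the 3 highest and lowest called genes of the lists. Listed genes with a common peak, and Pax7, Myf5 and Pax3, were named after their values were seen. Members and lists were chosen with earlier results of these data known.

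Input 1 has reads of 36 bp and the other libraries 39 bp. Reads at repeated positions made up 2.96% to 7.88% of a library. The labels number the replicates, the study's methods call the precipitations independent, and n = 2 limits the precision of every value.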

Additional observations from a re-analysis of the deposited data

How the results depend on the processing

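Counts of calls moved with the processing, and so did the directions of some start sites and of Sox6 calls over bodies, and the cause was not tested. Adding 2 reads to each count gave 20053 starts with Pol II above input, and 13120 starts (8 of these genes' own) and 1990 bodies with Sox6 above it. It also turned the start of Nfatc4 and the third start of Rcan2, whose windows have no Pol II read, to log2 ratios of 1.49 and 1.4 that passed. Adding 0.1 RPM in every library gave 7 of the genes' starts higher and 3 lower for Pol II, with 8058 higher over all starts. The 3 lower were the outer Nfatc2 start, the Nfatc4 start and the third Rcan2 start (log2 ratios -2.15, -1.85 and -1.93). None of them had a Pol II read, so their values follow from the addition and the input. For Sox6 it gave 147 starts higher and 1 of the genes' starts lower, the first of Rcan1, which had no Sox6 read. Over bodies it gave 18 higher and 1 lower for Sox6, with 0 and 0 of these genes. With no filter Sox6 was above input at 1865 starts, and with at least 40 reads there were 5238 starts (5 of these genes) for Pol II and 208 for Sox6. With the median set to 0 there were 5085 starts (5) for Pol II, 85 for Sox6, and 431 bodies above and 946 below for Sox6. A window of 250 bp left 6 of the genes' starts for Pol II, with 8409 over all starts, and 346 starts for Sox6. One of 1000 bp left 152 for Sox6. One fit of all 6 libraries left 1 gene (Rcan2) with Pol II below input over the body, beside 4486 of all bodies. In the deposited intervals alone 902 and 789 peaks of the replicate 1 and 2 lists passed with the other replicate's reads, 1 of them in the replicate 1 list near these genes. With the replicate number as a block, Sox6 was above input at 1 start of these genes (Ppp3ca 1), beside 579 of all starts. That start had 0 and 1 Sox6 reads against 0 and 9 input reads. Replicate 1 had no read in either library, so its ratio came from the reads added alone. With this block Sox6 was also above input over 2 of these genes' bodies (Nfatc1 and Nfatc2). Over all bodies 2716 were above and 1139 below. In that fit Pol II was above input at 10 of these genes' starts and at 10031 of all starts. Nfat5 2 and Rcan1 2 fell short (limma adjusted p = 0.0521 and 0.0683). The labels do not say that equal numbers mark a shared experiment, so the main fits did not pair libraries. For peak calling, the study's methods name an input file of each ChIP experiment. Deviations of the first replicates from their group means correlated with those of input at -0.06 (Pol II) and 0.06 (Sox6) over 18407 genes. With 2 libraries in a group and few reads, this cannot settle the pairing.

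Leaving out each library gave 6 to 11 of the genes' starts higher for Pol II, 1 to 2 of their bodies lower (2999 to 6222 of all bodies), 23 to 9888 starts higher for Sox6 (0 to 8 of these genes higher, 0 to 1 lower), and 182 to 6618 bodies higher and 38 to 2810 lower for Sox6 (1 to 3 and 0 to 3 of these genes). A group left with 1 library was assumed to vary like the other. Over gene bodies, the Pol II calls of Nfat5, Nfatc3, Ppp3cb, Ppp3r1, Nfatc2 and Rcan2 kept their direction and stayed past the threshold under all 13 alternatives. Start windows with few reads in the Sox6 and Pol II libraries limit what could be detected there.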
